A study of Mus musculus with 20 samples.

Results

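Surface Toll-like receptors and their lipopolysaccharide (LPS) co-receptors were followed in microglial RNA as a set of 10 genes: Tlr1, Tlr2, Tlr4, Tlr5, Tlr6, Cd14, Ly96, Ticam2, Cd180 and Ly86. They were picked by symbol from a table of 24062 genes, and all 10 were present. The microglia came from male mThy1-Asyn mice, which carry human wild-type α-synuclein under the murine Thy-1 promoter (a promoter used to drive expression in neurons), and from wild-type littermates, all of strain B6D2F1/J. There were 6 mThy1-Asyn and 4 wild-type mice at 7 months of age, and 5 and 5 at 10 months. Each sample was the whole brain of 1 mouse, and its cells were selected with magnetic beads that the sample labels describe as IBA1 beads and the study's methods as CD11b beads. The mice of an age were processed together and normalised apart from the other age, so age and processing cannot be told apart, and levels are compared between genotypes within an age. Between 33404096 and 77806399 reads per mouse were counted on genes. All 12 microglial marker genes were detected, and their sum made up 4.22% to 4.70% of all values in the 4 groups. The values are normalised read counts, that is, reads divided by a size factor for each mouse.

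Toll-like receptors are membrane proteins that bind microbial and tissue-damage molecules through leucine-rich repeats and signal through a TIR domain inside the cell. TLR2 works as a pair with TLR1 or TLR6, and the partner sets which lipopeptides are bound. TLR4 binds LPS only together with MD-2 (encoded by Ly96), CD14 hands LPS to that complex, and TRAM (encoded by Ticam2) is the sorting adaptor that links internalised TLR4 to the TRIF pathway. TLR5 is the receptor of bacterial flagellin. CD180 (RP105) and its partner MD-1 (encoded by Ly86) resemble TLR4 and MD-2 but lack a TIR domain and can damp TLR4 signalling in myeloid cells. Microglia express most of these proteins, and aggregated α-synuclein is a known ligand of the TLR2 complexes on these cells.

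In mm10, Tlr1 (chr5:64924679-64933563) and Tlr6 (chr5:64952031-64960097) are neighbours on the minus strand. Tlr2 is at chr3:83836272-83841767, Tlr4 at chr4:66827584-66930284, Tlr5 at chr1:182954788-182976044, Ly96 at chr1:16688051-16709611, Cd180 at chr13:102693558-102739629, and Ly86 at chr13:37345208-37419036. Exons of Ticam2 share 838 bases with exons of Tmed7 on the same strand, and exons of Cd180 share 182 bases with Mast4 on the opposite strand. For which gene, if any, reads from these stretches were counted is not given in the sources used here. Coding sequences of Tlr1 and Tlr6 were 74.8% identical over 2365 aligned bases, whereas the other 9 pairs of Toll-like receptors among the members were between 52.0% and 55.2% identical. The stretches shown here let the Tlr1 and Tlr6 values be read with that likeness in mind. Near the start of the coding sequence the genes differed at 44 of 120 bases, and the differing bases are in capitals (coding bases 100 to 219 of Tlr1 and 145 to 264 of Tlr6, chromosome 5, GRCm38, coding strand).
Tlr1, coding bases near the start: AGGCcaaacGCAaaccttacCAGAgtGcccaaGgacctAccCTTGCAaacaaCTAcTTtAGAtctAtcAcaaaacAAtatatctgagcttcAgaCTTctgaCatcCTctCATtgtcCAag
Tlr6, coding bases near the start: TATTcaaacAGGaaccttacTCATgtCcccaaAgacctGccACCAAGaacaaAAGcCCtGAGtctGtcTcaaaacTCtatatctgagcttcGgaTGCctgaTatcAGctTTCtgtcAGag
Further on, both genes held the same 229 bases in a row, the longest shared run of any pair. Its leading 120 bases (from coding base 1468 of Tlr1 and 1507 of Tlr6) have no differing base and hence no capitals.
Tlr1 and Tlr6, shared run: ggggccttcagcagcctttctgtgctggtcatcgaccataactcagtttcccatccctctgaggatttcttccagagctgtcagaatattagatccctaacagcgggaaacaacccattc
Of the 2239 windows of 150 bases, the length of a read, along the Tlr1 coding sequence, 139 (6.21%) were also found whole in Tlr6. No such window was shared by any other pair. How reads that fit both genes were counted is not given in the sources used here, so a small part of the Tlr1 and Tlr6 values is uncertain.

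Promoters of the TLR2 complex are shown because several of the comparisons that follow turn on its 3 chains. RefSeq promoter entries (GRCm38.p6, 250 bases before to 50 after the start of transcription) matched 6 of the 10 members, and Tlr4, Ly96, Cd14 and Ticam2 were not matched. Capitals mark matches to GAGGAA, the core recognised by the myeloid factor PU.1, or to GGNNTTNCC, a pattern of NF-κB sites, on either strand.
Tlr1, chr5:64933509-64933808, minus strand: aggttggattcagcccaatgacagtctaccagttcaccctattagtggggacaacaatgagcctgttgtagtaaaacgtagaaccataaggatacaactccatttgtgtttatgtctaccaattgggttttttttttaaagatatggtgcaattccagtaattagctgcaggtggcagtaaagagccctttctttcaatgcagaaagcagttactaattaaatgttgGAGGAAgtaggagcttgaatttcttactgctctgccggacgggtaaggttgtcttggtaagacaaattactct
Tlr2, chr3:83841559-83841858, minus strand: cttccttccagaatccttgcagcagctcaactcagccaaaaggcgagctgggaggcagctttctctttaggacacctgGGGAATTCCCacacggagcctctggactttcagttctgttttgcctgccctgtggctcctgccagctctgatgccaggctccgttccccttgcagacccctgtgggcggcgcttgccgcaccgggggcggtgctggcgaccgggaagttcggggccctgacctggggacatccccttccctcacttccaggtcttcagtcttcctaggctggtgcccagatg
Tlr6, chr5:64959999-64960298, minus strand: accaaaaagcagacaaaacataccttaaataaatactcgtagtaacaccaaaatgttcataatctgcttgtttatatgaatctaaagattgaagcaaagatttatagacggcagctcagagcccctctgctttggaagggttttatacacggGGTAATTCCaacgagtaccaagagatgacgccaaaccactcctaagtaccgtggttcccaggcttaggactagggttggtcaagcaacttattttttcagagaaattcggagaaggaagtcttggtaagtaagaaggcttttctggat
The Tlr1 promoter held GAGGAA at position -23 from the start, the Tlr2 promoter held the NF-κB pattern on both strands in overlapping matches at positions -172 and -171, and the Tlr6 promoter held it on the reverse strand at position -98. The Tlr5 promoter held it at position -20. Among all 32851 promoter entries, 28.28% held GAGGAA and 15.96% held the NF-κB pattern on at least 1 strand. The AP-1 sequence TGANTCA, found in 7.808% of entries, was in none of the members' entries. The other entries of Tlr1 and Tlr6 and the entries of Cd180 and Ly86 held none of the 3 sequences in these windows. These are matches of letters and not measured binding sites.

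Levels of the members spread widely and were compared between genes only per kilobase of exon. In wild-type mice at 7 months, Ly86 was the highest, at 22138 ± 2900 normalised counts per kilobase (SD, n = 4). Cd14 followed at 7582 ± 551, then Cd180 at 4366 ± 167 and Tlr2 at 2689 ± 114. Tlr4, Ly96 and Ticam2, and the TLR2 partners Tlr1 and Tlr6, lay lower and closer together. Tlr2, the common chain, had a mean 2.55 times that of Tlr4, the next gene, without overlap. Tlr4 stood at 1054 ± 138, Ly96 at 718 ± 102, Tlr1 at 655 ± 90.0, Ticam2 at 637 ± 45.7 and Tlr6 at 538 ± 26.2. Ranges over mice overlapped between Tlr4 and Ly96, Ly96 and Tlr1, and Tlr1 and Ticam2, so these neighbours cannot be ordered from these mice, whereas Ticam2 lay above Tlr6 without overlap. The flagellin receptor gene Tlr5 was lowest, at 149 ± 10.2 per kilobase, below every other member in every group. Ly86 was highest in every group, with a mean 2.179 to 3.37 times that of Cd14, the next gene. The order of the others was similar in the 3 remaining groups, but in wild-type mice at 10 months Tlr2 (3429 ± 392.4, n = 5) and Cd180 (3272 ± 302) changed places with overlapping ranges. In the same mice Tlr6 (692 ± 109) stood above Ticam2 (601 ± 78.1), again with overlapping ranges. Ticam2 and Tlr6 overlapped in mThy1-Asyn mice at both ages as well. In mThy1-Asyn mice Tlr1 stood above Ly96 at both ages, with overlapping ranges at 7 months (1104 ± 193 and 1096 ± 141, n = 6) and separate ranges at 10 months (1060 ± 128 and 850 ± 49.5, n = 5).

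**Figure D1:**
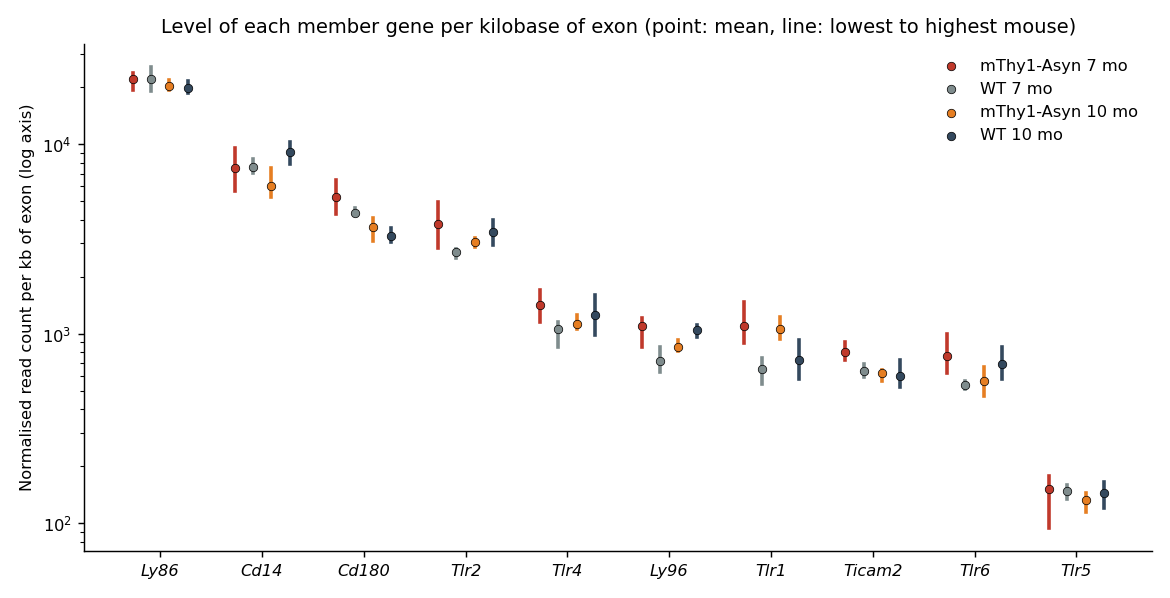
Normalised read count per kilobase of exon (log axis) of the 10 genes in the 4 groups, ordered by the wild-type mean at 7 months; points are means and lines run from the lowest to the highest mouse. Group means of Ly86 lie between 19774 and 22159, those of Tlr5 between 133 and 151, and the other 8 genes lie between these.

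At 7 months the set leaned upward in mThy1-Asyn mice. Of the 10 members, 5 rose and 0 fell: Tlr1, Ly96, Tlr6, Tlr4 and Ticam2. The comparison used limma's moderated test, applied to log2(value + 1) with p-values adjusted by the Benjamini-Hochberg method over all 13887 genes that reached 10 in 4 or more mice, and a gene was called at an adjusted p under 0.05. Fold changes are on that log2 scale. Among all tested genes 4.93% were called and 2.23% were called higher. The median log2 fold change of the members was 0.38, beside 0.000935 over all tested genes. The groups did not overlap for 5 members, all higher in mThy1-Asyn mice, beside 7.53% of all tested genes. The number of members called was 3 without wild-type replicate 1 and 2 without wild-type replicate 2 or replicate 3. Calls among all tested genes fell in the same fits, from 684 to 280, 443 and 367 without wild-type replicates 1, 2 and 3. These are bulk samples, in which more cells of a type and more RNA per cell cannot be told apart.

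Of the TLR2 complex, Tlr1 had the largest difference. In mThy1-Asyn mice the lowest, median and highest values of Tlr1 were 3009, 3579 and 4914, and the wild-type mice had 1825, 2491, 2374 and 2073. Every mThy1-Asyn mouse lay above every wild-type mouse, and Tlr1 was 1.68-fold higher (log2 fold change 0.75, SE 0.12, adjusted p = 0.00347). For Tlr6 the lowest, median and highest values were 2305, 2746 and 3729 in mThy1-Asyn mice, and the wild-type mice had 2102, 1900, 1943 and 2070. The groups did not overlap, and Tlr6 rose by 0.49 on the log2 scale (SE 0.11, adjusted p = 0.0159). That call was lost without wild-type replicate 2 (adjusted p = 0.0548) or replicate 3 (0.0566). The common chain Tlr2 had 8597, 11352 and 14984 as lowest, median and highest values in mThy1-Asyn mice and 8207, 7617, 8179 and 8417 in wild-type mice. The 4 wild-type mice lay close together and below all 6 others, which were widely spread. The log2 fold change was 0.47 (SE 0.13), and its adjusted p of 0.0530 missed the cutoff. Tlr2 passed in the count models on the recovered reads (edgeR adjusted p = 0.0447, DESeq2 0.00363) and with limma after leaving out mThy1-Asyn replicate 4 (0.0275) or replicate 5 (0.0109). Those replicates had the lowest Tlr2 values of their group. Tlr2 was called in 6 of 12 alternative fits and in 2 of 10 fits that left out a mouse. With limma its adjusted p reached 0.0860 on values scaled to microglial markers and 0.133 with a mouse left out.

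Of the LPS receptor, 3 of 4 genes rose, among them Ticam2, which like Cd14 lies on chromosome 18. Tlr4 ran from 6423 over a median of 7769 to 9492 in mThy1-Asyn mice, and the wild-type mice had 6154, 6135, 4724 and 6414. The highest wild-type mouse and the lowest mThy1-Asyn mouse differed by little, with no overlap (log2 fold change 0.44, SE 0.11, adjusted p = 0.0297). Ly96, the gene of the LPS-binding chain MD-2, ran from 868 over 1175 to 1231 in mThy1-Asyn mice, and the wild-type mice had 752, 670, 872 and 640. Here mThy1-Asyn replicate 4 lay just below wild-type replicate 3, so the groups overlapped by a single mouse (1.53-fold higher, log2 fold change 0.61, SE 0.12, adjusted p = 0.00797). Ticam2 ran from 4210 over 4487 to 5268 in mThy1-Asyn mice, and the wild-type mice had 3751, 3560, 3417 and 4029, again without overlap (log2 fold change 0.33, SE 0.08, adjusted p = 0.0238). Tlr4 lost its call without mThy1-Asyn replicates 1 or 3 or wild-type replicates 1, 2 or 3 (adjusted p from 0.0547 to 0.102), and Ticam2 without mThy1-Asyn replicate 2 or wild-type replicates 1, 2 or 3 (0.0557 to 0.0820). Cd14, the carrier that hands LPS to TLR4, ran from 9823 over 12725 to 16641 in mThy1-Asyn mice and had 13051, 12174, 14447 and 12857 in wild-type mice. Its mThy1-Asyn values fell on both sides of the narrow wild-type range (log2 fold change -0.04, 95% interval -0.35 to 0.27, adjusted p = 0.903).

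The remaining members did not pass at 7 months. Cd180 ranged from 19306 to 29405 in mThy1-Asyn and from 19085 to 20734 in wild-type mice (difference of 0.25 on the log2 scale, SE 0.11, adjusted p = 0.178). Its partner Ly86 ranged from 70095 to 86058 and from 69377 to 92920, with a log2 fold change of 0.01 (95% interval -0.18 to 0.20, adjusted p = 0.977). Tlr5 ranged from 453 to 847 and from 644 to 760, with a log2 fold change of -0.01 (95% interval -0.35 to 0.33, adjusted p = 0.984).

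**Figure D2:**
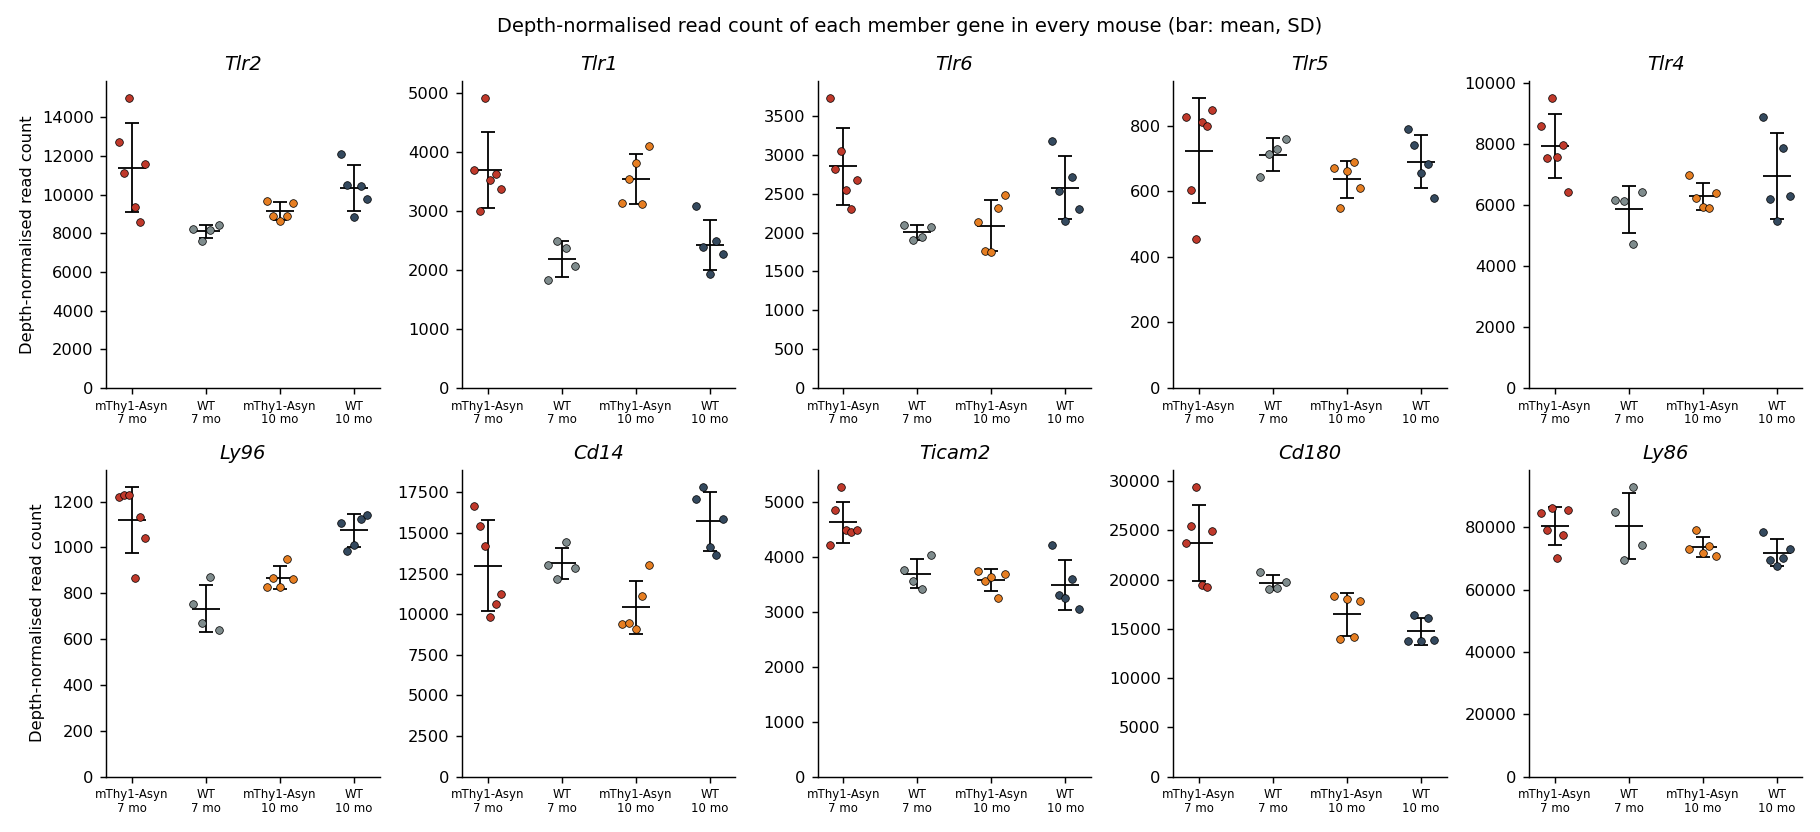
Normalised read count (linear axis from 0) of each gene in every mouse of the 4 groups; points are mice and bars the mean and SD. Tlr1 is higher in mThy1-Asyn than in wild-type mice at both ages, Ly96 is higher at 7 months and lower at 10 months, and Cd14 is lower at 10 months.

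At 10 months 1 member rose and 2 fell in mThy1-Asyn mice: Tlr1 was higher, and Cd14 and Ly96 were lower. Among the 13627 genes tested (those that reached 10 in 5 or more mice) 7.67% were called. The members' median log2 fold change was -0.12, beside -0.0026 over all tested genes. The groups did not overlap for these 3 members, beside 7.27% of all tested genes.

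The value of Tlr1 was 3131, 3551, 3811, 3129 and 4110 in the mThy1-Asyn mice. In the wild-type mice it was 3090, 2388, 1928, 2497 and 2266. The lowest mThy1-Asyn mouse stood just above the highest wild-type mouse, and Tlr1 was 1.47-fold higher (log2 fold change 0.55, SE 0.11, adjusted p = 0.0120). Its partner chains had fold changes of the other sign that did not pass. Tlr6 had 2133, 1761, 1755, 2320 and 2478 in mThy1-Asyn and 3186, 2534, 2149, 2722 and 2299 in wild-type mice, with overlapping groups (log2 fold change -0.30, SE 0.12, adjusted p = 0.141). Tlr2 had 9688, 8905, 8662, 8923 and 9586 against 12087, 10490, 8863, 10466 and 9771 (log2 fold change -0.17, SE 0.08, adjusted p = 0.204). Among genes within 500 kb of Tlr6, Tlr1 was the only gene called at both ages, and none was near Tlr1.

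Cd14 fell most among the members. It had 9426, 9468, 9094, 11146 and 13003 in the mThy1-Asyn mice and 17105, 17828, 14169, 13639 and 15862 in the wild-type mice. No mThy1-Asyn mouse reached the lowest wild-type mouse, and Cd14 stood at 0.661 of the wild-type level (log2 fold change -0.60, SE 0.10, adjusted p = 0.00549). Ly96 had 829.2, 867, 827, 952 and 862 in mThy1-Asyn and 1109, 986, 1011, 1125 and 1142 in wild-type mice. The groups were apart by a small gap (0.808 of the wild-type level, log2 fold change -0.31, SE 0.08, adjusted p = 0.0303). The Ly96 call was lost without mThy1-Asyn replicates 1, 2, 3 or 5 or wild-type replicates 1 or 5 (adjusted p from 0.0565 to 0.0754). Tlr4 itself had 6973, 6214, 5940, 5888 and 6386 in mThy1-Asyn mice and 8898, 6198, 5483, 7877 and 6291 in wild-type mice. The wild-type mice lay on both sides of the mThy1-Asyn mice (log2 fold change -0.13, 95% interval -0.37 to 0.12, adjusted p = 0.546). Ticam2 ranged from 3244 to 3742 against 3041 to 4209 (log2 fold change 0.05, adjusted p = 0.787).

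Cd180 ranged from 13997 to 18325 in mThy1-Asyn and from 13723 to 16375 in wild-type mice at 10 months (log2 fold change 0.15, adjusted p = 0.347). Ly86 ranged from 70668 to 78991 and from 67497 to 78599 (0.04, 95% interval -0.09 to 0.17, adjusted p = 0.762), and Tlr5 from 550 to 689 and from 579 to 790 (-0.11, adjusted p = 0.555).

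Markers of other cells moved with genotype in these same mice. At 10 months the summed value of the 7 monocyte markers ran from 15881 to 27597 in mThy1-Asyn and from 29053 to 56599 in wild-type mice, and 4 of the 7 fell (median log2 fold change -1.29). Of the 8 neutrophil markers, 7 were in the table. Their sum ran from 65712 to 176163 and from 142843 to 351839, and 2 fell. The 8 border macrophage markers summed to 19002 to 24461 and 25908 to 35885, and 5 fell. At 7 months the monocyte sum ran from 12220 to 46607 in mThy1-Asyn and from 15900 to 41021 in wild-type mice. The neutrophil sum ran from 40738 to 398817 and from 69787 to 258095, and the border macrophage sum from 22027 to 36748 and from 22665 to 32181. All 7 monocyte and all 7 neutrophil markers had a log2 fold change below 0 at 7 months, and 0 of the markers of these 3 lists were called. None of these markers was at 0 in all mice of a group. Monocytes and neutrophils carry CD14, TLR2 and TLR4. Over the 20 mice, with each group's mean removed, log2 Cd14 and the mean log2 value of the monocyte markers had r = -0.57, and Cd14 and the neutrophil markers had r = -0.46, while Cd14 and the border macrophage markers had r = 0.47, as a description over libraries that share depth and cell makeup. For Tlr2 the r with the monocyte, neutrophil and border macrophage markers was -0.61, -0.67 and 0.14. For Tlr4 it was -0.31, -0.43 and 0.10. The part of these cells in the differences of Cd14 and the other members was not tested. At 7 months the 12 neuron markers summed to 359 to 717 in mThy1-Asyn and 887 to 1633 in wild-type mice, and 6 of them fell. The 10 oligodendrocyte markers summed to 7882 to 10234 and 12814 to 18286, and 3 fell, as did 5 of 10 astrocyte and 2 of 10 endothelial markers, while 1 astrocyte marker rose. The part of these cells in the 7-month differences was not tested. Of the 17 dissociation response genes, 0 were called at 7 months by limma, edgeR or DESeq2 (3 had an unadjusted p under 0.05). At 10 months 14 of the 17 had a log2 fold change below 0, and 9 had an unadjusted p under 0.05. By limma 1 (Fosb) fell, with 2 genes called by edgeR and 4 by DESeq2. Among all 13627 genes tested at 10 months, 6880 had a log2 fold change below 0. Of these 13627 genes limma called 1045 (7.67%), edgeR 1150 and DESeq2 1696. The share of all genes with an unadjusted p under 0.05 is not given here. The part of the dissociation response in the 10-month differences was not tested.

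**Figure D3:**
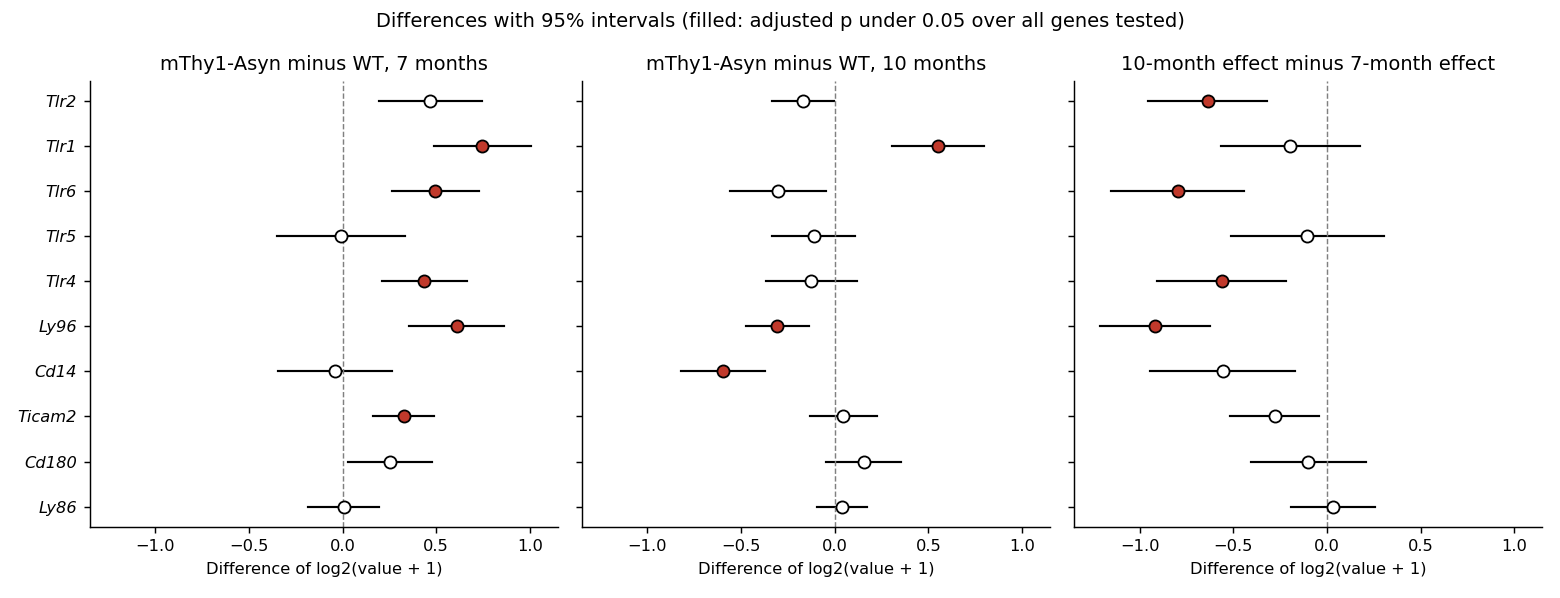
Difference of log2(value + 1) between mThy1-Asyn and wild-type mice at 7 months and at 10 months, and the 10-month minus the 7-month difference, for the 10 genes; points are estimates, lines 95% intervals, and filled points have an adjusted p under 0.05. Filled points lie right of 0 for 5 genes at 7 months and for Tlr1 at 10 months. They lie left of 0 for Cd14 and Ly96 at 10 months, and for Tlr2, Tlr6, Tlr4 and Ly96 in the difference between the ages.

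Every mouse was also scaled to the mean log2 value of its 12 microglial markers, whose median log2 fold changes were 0.10 at 7 months and 0.15 at 10 months. At 7 months the markers ran from -0.73 (Fcrls) to 0.53 (Gpr34), and Fcrls values ran from 17800 to 75629 within the mThy1-Asyn mice. This scaling moved the median of all tested genes by -0.06 at 7 months and by -0.14 at 10 months. On that scale the log2 fold changes at 7 months were 0.68 for Tlr1, 0.55 for Ly96 and 0.43 for Tlr6, all still called, and 0.38 for Tlr4 (adjusted p = 0.127) and 0.26 for Ticam2 (0.119), which were not. At 10 months Tlr1 (0.41), Cd14 (-0.74) and Ly96 (-0.45) were called, and Tlr2 (-0.31, adjusted p = 0.0436) and Tlr6 (-0.44, 0.0341) fell as well. The sign of the log2 fold change of Ly86 turned at both ages and that of Ticam2 at 10 months, none of them called on either scale.

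Whether the genotype difference itself changed with age was tested as the 10-month minus the 7-month difference in 1 fit of all 20 mice. In that fit 6.36% of 14457 genes were called and 2.62% were called lower at 10 months, and 4 of the 10 members were called, all lower. Ly96 had the largest shift, from higher to lower (-0.92, SE 0.14, 95% interval -1.21 to -0.62, adjusted p = 0.000749). Tlr6 shifted by -0.80 (SE 0.17, adjusted p = 0.00805) and Tlr2 by -0.64 (SE 0.15, adjusted p = 0.0157). Leaving out any single mouse kept the calls of these 3 genes. Tlr4 shifted by -0.56 (SE 0.17, adjusted p = 0.0449), a call lost in 13 of 20 fits that left out a mouse (up to 0.1004, without wild-type replicate 3 at 7 months) and kept without mThy1-Asyn replicates 4 or 6 or wild-type replicate 4 at 7 months, or mThy1-Asyn replicate 1 or wild-type replicates 2, 3 or 5 at 10 months. Cd14 shifted by a similar amount with a wider error (-0.56, SE 0.19, adjusted p = 0.0766), and passed without mThy1-Asyn replicate 4 at 7 months (0.0303) or mThy1-Asyn replicate 5 at 10 months (0.0365). For Tlr1 the difference between the ages was -0.20 (95% interval -0.57 to 0.17, adjusted p = 0.563), which leaves a change of its excess with age undetermined within that interval. Ticam2 (-0.28, adjusted p = 0.148), Tlr5 (-0.10), Cd180 (-0.10) and Ly86 (0.03) did not pass.

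Ratios between chains of a receptor were then compared within each mouse, where the size factor cancels. The log2 ratio of Tlr1 to Tlr2 at 10 months was -1.37 ± 0.19 in mThy1-Asyn and -2.10 ± 0.09 in wild-type mice (SD, n = 5 and 5), and the groups did not overlap. The difference of 0.72 had an exact permutation p of 0.00794 (two-sided), the smallest that 252 assignments of the mice can give, and 0.0794 after adjustment over the 10 ratio tests. At 7 months the same ratio differed by 0.28 (exact permutation p = 0.124, adjusted 0.238). The ratio of Cd14 to Tlr4 was lower in mThy1-Asyn mice by a like amount at both ages, -0.48 at 7 months (exact permutation p = 0.0286) and -0.47 at 10 months (exact permutation p = 0.0397), each with an adjusted p of 0.132 and overlapping groups. Ly86 to Cd180 differed by -0.25 at 7 months (exact permutation p = 0.0571, adjusted 0.143) and by -0.12 at 10 months (adjusted 0.402). Ly96 to Tlr4 differed by 0.17 at 7 months and by -0.18 at 10 months (adjusted 0.402 and 0.238), and Tlr6 to Tlr2 by 0.03 and -0.13 (adjusted 0.781 and 0.238). None of the 10 ratios passed after adjustment. A ratio alone at the smallest possible p could not pass, because with 10 tests its adjusted p is 0.0794 at 10 months. The smallest exact permutation p at 7 months, 0.00952, is larger still. The adjusted values therefore cannot decide whether a single ratio differed.

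**Figure D4:**
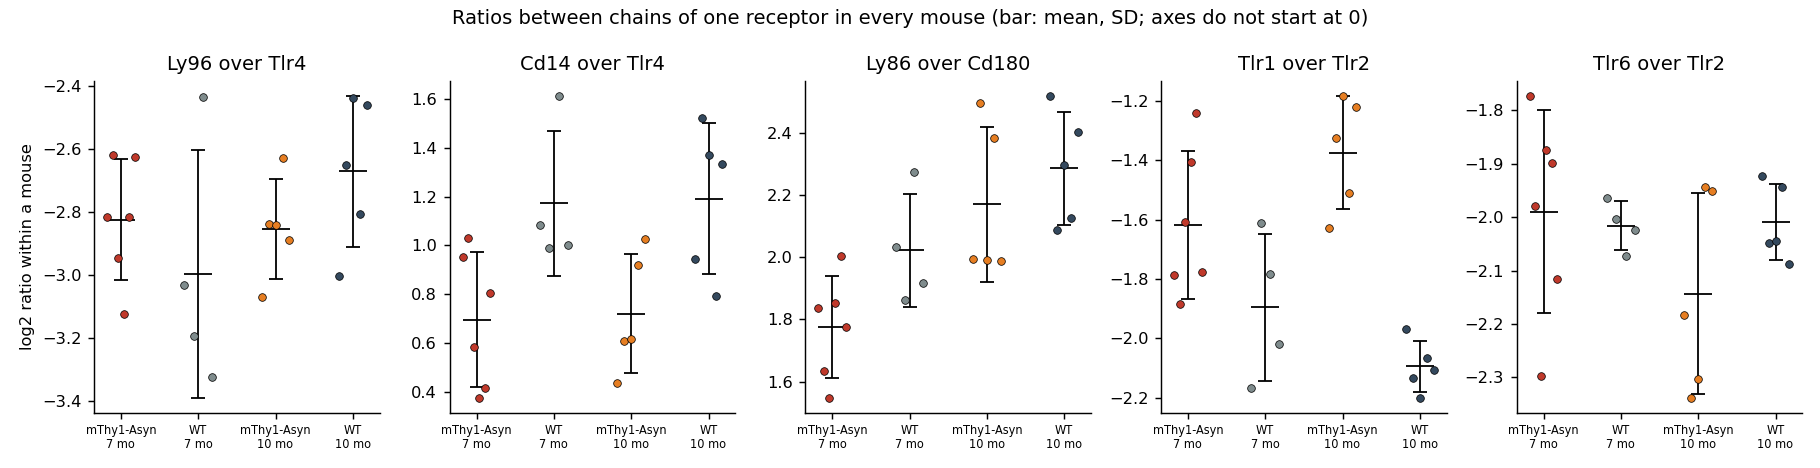
Log2 ratio of 5 pairs of receptor chains in every mouse (axes do not start at 0); points are mice and bars the mean and SD. The Tlr1 to Tlr2 ratio of the mThy1-Asyn mice at 10 months (-1.63 to -1.18) lies above that of the wild-type mice (-2.20 to -1.97), and the other pairs overlap.

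The endosomal Toll-like receptors, which sense nucleic acids and microbial proteins inside the cell, were higher at 7 months as well. Of 7 measured, 4 rose and 0 fell, with a median log2 fold change of 0.36. Tlr7, a receptor of single-stranded RNA, stood at 23617 ± 1760 in mThy1-Asyn and 15547 ± 1769 in wild-type mice (SD, n = 6 and 4; log2 fold change 0.61, adjusted p = 0.00183). Tlr9, the receptor of CpG DNA, rose by 0.55 (adjusted p = 0.00424), Tlr13 by 0.39 (0.00937) and Tlr3, the receptor of double-stranded RNA, by 0.36 (0.00567). At 10 months 0 of the 7 were called with limma, edgeR or DESeq2 (1 had an unadjusted p under 0.05), with a median of 0.02, and the fold change of Tlr7 differed between the ages (-0.59, adjusted p = 0.0188). No test set the surface receptors against the endosomal ones.

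Chaperones that fold Toll-like receptors included a gene that moved in opposite directions at the ages. Hsp90b1 (gp96), the endoplasmic reticulum chaperone that most surface Toll-like receptors need to mature, had 113577 ± 9332 in mThy1-Asyn and 92120 ± 5070 in wild-type mice at 7 months (log2 fold change 0.30, adjusted p = 0.0337). At 10 months it had 98313 ± 10848 and 135936 ± 10873 (-0.47, adjusted p = 0.00489), and the difference between the ages was -0.77 (adjusted p = 0.000373). Cnpy4, which takes part in bringing TLR4 to the cell surface, was called only at 10 months (1059 ± 53.5 and 1374 ± 121, log2 fold change -0.37, adjusted p = 0.0140), and its fold change also differed between the ages (-0.41, adjusted p = 0.0490). The other 4 chaperones, Cnpy3, Unc93b1, Lrrc59 and Canx, were not called at either age. Of the 8 ligand transfer and accessory receptors, 0 were called at 7 months by limma, edgeR or DESeq2 (2 had an unadjusted p under 0.05). Itgam (CD11b, the antigen of the selection the study's methods describe) rose by 0.22 at 10 months (adjusted p = 0.0408). The 12 microglial markers had a median log2 fold change of 0.15 at that age.

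Genes downstream of the receptors were counted in the same way. At 7 months these were 14 adaptors and proximal kinases, 14 genes of the NF-κB and IRF branch and 18 negative regulators. Of these 46 genes, 0 were called with limma or edgeR, and DESeq2 called 1, Irak4. Among all 13887 genes tested limma called 684 (4.93%), edgeR 653 and DESeq2 1152. An unadjusted p under 0.05 was seen for 5 of the 46, and its share over all genes is not given here. The median log2 fold changes of the 3 lists were 0.04, 0.07 and 0.0047. At 10 months Myd88, the adaptor through which the Toll-like receptors among the members signal, fell from 3701 ± 596 in wild-type to 2898 ± 120 in mThy1-Asyn mice (-0.34, SE 0.09, adjusted p = 0.0420). Map3k7 (TAK1) rose by 0.21 (adjusted p = 0.0464), beside the median of 0.15 for the microglial markers at that age. Irak1 was not called at either age, but its fold change differed between them (0.31, adjusted p = 0.0284). Among negative regulators Irak3 (-0.52, adjusted p = 0.0464), Tnip1 (-0.27, 0.0483) and Tnip3 (-0.83, 0.0419) fell, and 0 of the 14 genes of the NF-κB and IRF branch were called with limma or edgeR (3 had an unadjusted p under 0.05, and DESeq2 called Irf7).

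Of 16 cytokine and mediator genes that Toll-like receptor signalling induces, 14 could be tested at each age. At 7 months Cxcl10 rose (520 ± 209 against 208 ± 48.5, log2 fold change 1.26, adjusted p = 0.00967) and Ccl5 fell (-1.17, adjusted p = 0.00815), and the Cxcl10 difference changed with age (-1.38, adjusted p = 0.0213). At 10 months 6 fell and 0 rose. Il1b, the gene of interleukin-1β, had 8547 ± 1845 in mThy1-Asyn and 23388 ± 8637 in wild-type mice (difference -1.40 on the log2 scale, adjusted p = 0.0222), and Ptgs2 had 1373 ± 329 and 3123 ± 601 (-1.20, adjusted p = 0.00332). The chemokine genes Cxcl2 (-1.20), Cxcl1 (-1.14), Ccl5 (-1.12) and Ccl2 (-0.63) fell too, with adjusted p between 0.00959 and 0.0466. The median over the 14 genes was 0.08 at 7 months and -0.16 at 10 months. Neutrophils and monocytes also make Il1b, Ptgs2 and Cxcl2, and their marker sums were lower in the same mice, as given above. Their part in these falls was not tested.

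**Figure D5:**
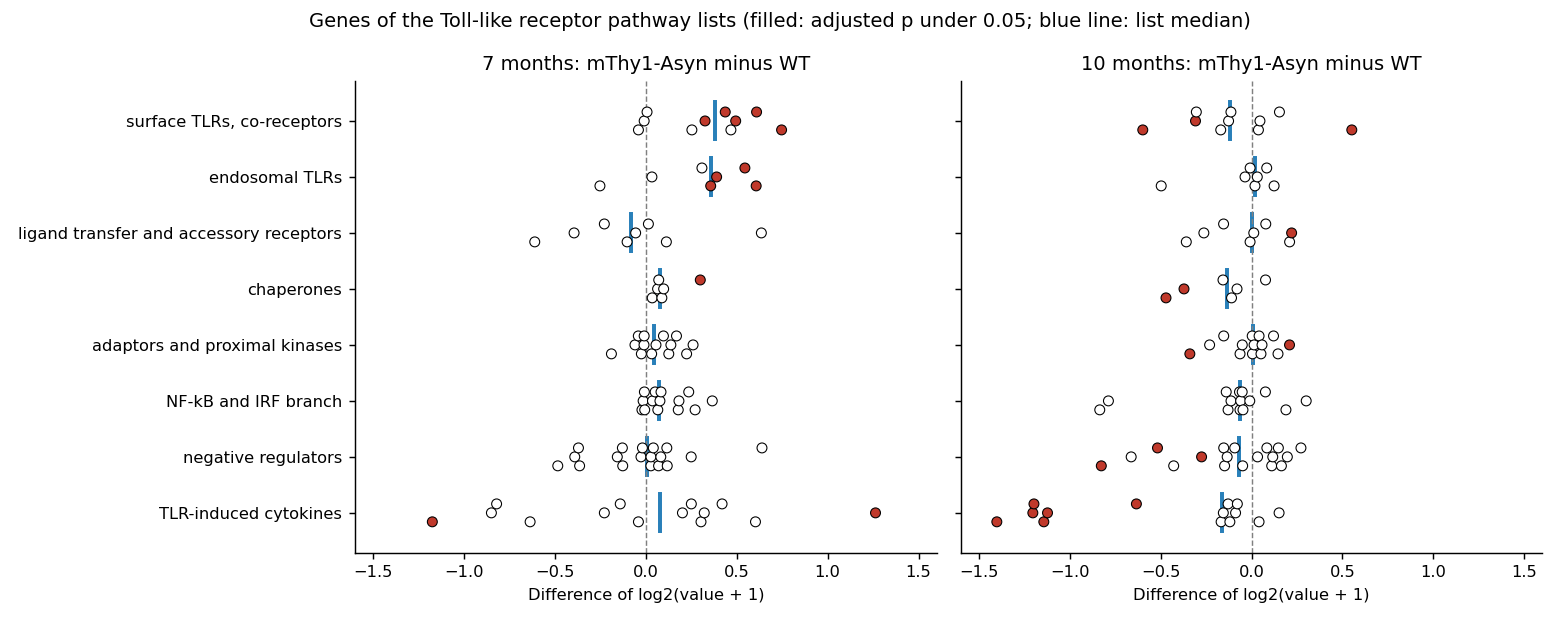
Difference of log2(value + 1) between mThy1-Asyn and wild-type mice at 7 months and at 10 months for the genes of 8 lists of the Toll-like receptor pathway; each point is a gene, filled points have an adjusted p under 0.05, and blue lines are list medians. At 7 months filled points lie mainly among the surface (5 of 10) and endosomal (4 of 7) receptors, and at 10 months they lie in 6 lists, with 6 of 14 induced cytokine genes, 3 members and 3 negative regulators among them.

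Likeness between genes was described by Pearson's r over the 20 mice after removing the 4 group means, among genes that share library, depth and cell makeup. Among the members, r was highest for Ly96 with Ly86 (0.73), the genes of the related proteins MD-2 and MD-1, for Tlr2 with Tlr6 (0.73), for Tlr4 with Ticam2 (0.71) and for Tlr6 with Cd14 (0.71). Tlr4 and its binding partner Ly96 had r = 0.07, and Cd180 and its partner Ly86 had r = 0.17. Tlr1 and its neighbour Tlr6 had r = 0.32, lower than Tlr1 with Tlr4 (0.51). Tlr5 had no r above 0.09 with any other member. Over all genes, the 3 most like Tlr2 were Manba (0.94), Mfsd1 (0.93) and Sgpl1 (0.93), and those most like Ly96 were Vimp (0.92), Aga (0.90) and Cr1l (0.86). Manba and Aga encode lysosomal hydrolases. For Cd14 they were Hgsnat (0.92), Rnf145 (0.88) and P2ry6 (0.88), for Tlr4 A530054K11Rik (0.90), Fndc3a (0.89) and Edem3 (0.89), and for Ticam2 Pign (0.92), Slc38a2 (0.92) and Kpna1 (0.90). Hgsnat encodes a lysosomal enzyme too. The functions of the other genes are not given here, and whether lysosomal genes were more frequent than among all genes was not tested. For Tlr6 the 3 most like were Cept1 (0.86), Slc7a6 (0.83) and Pomt2 (0.83), and for Ly86 they included Shisa5 (0.87) and Farsb (0.83). For Tlr1 they were A130077B15Rik (0.80), Dnajc3 (0.79) and Cpt1a (0.76), for Cd180 Ppp1r13b (0.82), Atp9a (0.80) and Samd8 (0.79), and for Tlr5 Rxfp1 (0.78), Ccno (0.77) and Kif13a (0.76). Values of Tlr1 and Tlr5 were thus the least closely matched by any other gene among the members.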

How the data were processed

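RNA was sequenced from bead-selected microglia of 20 mice. Reads were trimmed with Trim Galore 0.6.7, aligned to mm10 with HISAT2 2.2.1 and counted with featureCounts, as the submitters' processing notes and the study's methods state. The deposited signal values are read counts per gene, scaled by the authors with DESeq2 size factors (1.44.0 in their notes) that were set within each age. Reads per mouse were recovered for alternatives, with 100% of values whole multiples of a step (tolerance 0.01) in all 20 mice. The step of mThy1-Asyn replicate 5 at 10 months was close to 1, at 1.00341. Annotation release, strand and handling of reads with several places are not given in the sources used here. All 20 single-mouse files held the same values as the table.

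Values were compared with limma 3.58.1 (R 4.3.3; trend, robust) on log2(value + 1). The script was tested on simulated data. Chains were compared by exact permutation tests (scipy 1.17.1). Exon lengths and positions came from GENCODE on GRCm38. Alternatives were pseudocounts of 0.5 and 5, no filter or a minimum of 50, edgeR 4.0.16, DESeq2 1.42.0, voom, other scalings, a replicate block, all 20 mice in the fit and leaving out each mouse. The main fits did not pair mice by replicate number, and no mouse correlated best with the mouse of its own number. That check does not show how the numbers were assigned or which mice were littermates. The named genes are all members, pathway genes past the cutoff at either age and the 3 genes most like each member. Results for some genes are left out here. Irak1, Irak4, Irf7 and Fosb were chosen after their values were seen. Members and lists were chosen with earlier results of these data known. p-values measure the spread between mice.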

Additional observations from a re-analysis of the deposited data

Results flagged for a closer look

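Among 40 combinations of a member and a group, 2 mice stood far from the rest of their group, where chance alone gives about 1 in 20 groups. Tlr1 in mThy1-Asyn replicate 3 at 7 months was 4914, above the other 5 mice. Tlr4 in wild-type replicate 3 at 7 months was 4724, below the other 3. Without the Tlr1 outlier the 7-month Tlr1 call remained, and without the low Tlr4 mouse the 7-month Tlr4 difference was 0.34 with an adjusted p of 0.102 (limma).

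The genotype difference on the log2 scale changed between the ages, by limma's test over all 14457 genes, for 4 members and 5 other pathway genes. The 10-month minus the 7-month difference was -0.92 for Ly96, -0.80 for Tlr6, -0.64 for Tlr2 and -0.56 for Tlr4. It was -0.59 for Tlr7, -0.77 for Hsp90b1, -0.41 for Cnpy4, -1.38 for Cxcl10 and 0.31 for Irak1. The mice of each age were processed together, and a difference between the ages and a difference between processing groups cannot be told apart.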

How the results depend on the processing

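Of 750 member fold changes recomputed under the alternatives, 698 kept direction and side of the cutoff, 38 lost their call, 14 gained it and none that was called on either side turned sign. The number of genes called at 7 months (684) was 1152 with DESeq2 and 414 with the replicate block, and 280 to 860 when a mouse was left out. At 10 months (1045) it was 1696 with DESeq2 and 489 to 1232 when a mouse was left out. Between the ages (920) it was 482 with the block. edgeR on the recovered reads called 653, 1150 and 951. The members called at 7 months (5) were 3 under scaling to microglial markers and 2 to 6 when a mouse was left out, and those at 10 months (3) were 5 under that scaling. That scaling also changed the split of all genes called, from 309 higher and 375 lower to 146 and 511 at 7 months, from 529 and 516 to 182 and 1379 at 10 months, and from 541 and 379 to 290 and 454 between the ages. Correlations of mice with the same replicate number ran from -0.134 to 0.0995, and no mouse correlated best with its own number. The replicate block gave 4 members called at 7 months, where Tlr4 (adjusted p = 0.0611) and Ticam2 (0.0905) lost their calls and Tlr2 (0.0271) gained one, 2 at 10 months and 4 between the ages. At 10 months Ly96 missed the cutoff with the block (adjusted p = 0.0606) and in a fit of all 20 mice (0.0604). Tlr4 between the ages missed it without a filter (0.0578) and with voom (0.0748), and Cd14 passed with DESeq2 (0.0286) and voom (0.0448). No ratio passed under any alternative, but with so few mice a ratio alone at the smallest possible p could not pass. With size factors over all 20 mice, 0 of 40 member levels moved by more than the SD. The cause was not tested. Depth did not limit these genes, with at least 508 reads of each member in every mouse.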
